A study of Homo sapiens with 6 samples.

Results

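The genes described here are 34 genes of the integrated stress response, the program that runs through the transcription factor ATF4: its sensors, ATF4 and partner factors, and ATF4 target genes other than transporters. They were taken as a named list, chosen with earlier results of these data known. Their counts beside the shares of all genes therefore only describe the list. Of the 34, 33 had a probe set that carries their symbol alone, out of 33616 genes with such a probe set, and the brightest was used. Only a probe set shared with a microRNA represented ATF5, so that factor has no value of its own. ADM2, at 2.87 to 3.16 on the 6 arrays, and GDF15, at 2.59 to 2.99, lay below the median of all probe sets, 3.77, which was the filter on low values. The other 31 members were tested among 21070 genes.

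The 6 arrays are of LP-1, an established human multiple myeloma cell line, which derives from malignant plasma cells. L.A. cells grew in long-term acid culture, at pHe (extracellular pH) 6.8. Their time label is 9 months, although their sample descriptions say 8 to 10 weeks and the series design 8 to 10 months. S.A. cells grew in short-term acid culture, also at pHe 6.8, and their time label is 2 weeks, given elsewhere as 2 to 3 or 2 to 4 weeks. Ctrl cells grew at pHe 7.4, and their time label is 9 months. Each group had 2 arrays described as biological replicates, and the medium was otherwise of one recipe. By these labels S.A. also differed from Ctrl in time in culture, which cannot be told apart from pHe. The design asks how these cells change after weeks and after a long time at an acidity of the kind found in diseased bone marrow.

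The integrated stress response starts with kinases that phosphorylate the translation initiation factor eIF2 on its alpha subunit: PERK (EIF2AK3) senses unfolded protein in the endoplasmic reticulum, GCN2 (EIF2AK4) senses uncharged tRNA, and other kinases sense haem shortage, mitochondrial stress or viral RNA. Phosphorylated eIF2 blocks its own exchange factor eIF2B, which lowers general protein synthesis and favours translation of the ATF4 mRNA through its upstream reading frames. ATF4 pairs with C/EBP factors and switches on genes for amino acid synthesis and transport, tRNA charging, redox balance and feedback. Plasma cells, which secrete large amounts of antibody, are known to depend on control of protein synthesis in the endoplasmic reticulum. The arrays measure mRNA, not eIF2 phosphorylation or ATF4 protein.

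Values are on the authors' normalized log2 scale, so that a difference of 1 is a 2-fold change if the base is 2, as taken here. Differences are given with their standard error from limma, a linear model that pools the spread over genes, fitted to the 3 groups of 2 arrays. A gene was called at a Benjamini-Hochberg adjusted p under 0.05 over the 21070 genes. Within a group the 2 replicates differed in absolute size by a median of 0.21 to 0.23 over all genes. The deposited values hold almost no shift by replicate number that the 3 groups share, and the labels state no removal of such a term. If one was removed, this fit counts 3 residual degrees of freedom where 2 remain, and it called more genes than the blocked fit in each comparison. The adjusted p from a fit with replicate number as a term is therefore given beside it as the blocked adjusted p. Nothing says whether the replicates were separate cultures from the start, so p-values measure only the spread between these samples. On bulk RNA, fewer cells of a type and less RNA per cell cannot be told apart.

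Markers of plasma cells were bright and most markers of other cell types were dim. All 10 plasma cell markers were above the median of all probe sets, from 11.38 to 19.91, with JCHAIN brightest, and their mean was 14.54 to 14.59 on the L.A. arrays, 15.75 to 15.78 on the S.A. arrays and 15.20 to 15.25 on the Ctrl arrays. Of the T and NK cell markers 5 of 7 lay below that median, of the monocyte and macrophage markers 4 of 7, and of the stromal and endothelial markers 2 of 6, with PECAM1 the brightest at 11.30. The summed level of those lists, as a mean per gene, was 3.60 to 3.66, 3.49 to 3.54 and 3.52 to 3.60 for T and NK cells in L.A., S.A. and Ctrl, 3.89 to 3.91, 3.83 to 3.85 and 3.87 to 3.93 for monocytes, and 5.84 to 5.86, 5.69 to 5.92 and 5.79 to 5.99 for stromal cells. Of the 10 plasma cell markers 4 rose and 0 fell in S.A. against Ctrl (2 and 0 with the replicate block described above), and 1 rose and 1 fell in L.A. against Ctrl in both fits. Of all 21070 genes, 6.23% rose and 8.55% fell in S.A. (2.9% and 3.49% with the block). In L.A. 1.61% rose and 1.59% fell (0.769% and 0.555% with the block). None of the other-cell markers that passed the filter was called in any comparison. Only 2 T and NK cell, 3 monocyte and macrophage and 4 stromal and endothelial markers passed, too few for the lack of calls to say much. Over the 10 plasma cell markers the median difference in L.A. minus Ctrl was -0.07, with 5 above and 5 below Ctrl. In S.A. minus Ctrl it was 0.26, with 7 above and 3 below. Single genes therefore weigh on the means of this list. The surface receptor SLAMF7 stood at -7.15 in L.A. minus Ctrl and 2.17 in S.A. minus Ctrl. The receptor TNFRSF17 stood at 2.29 in S.A. minus Ctrl. The part of such shifts in the members' results was not tested.

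In S.A. most of the members called were higher than in Ctrl, and in L.A. each member called was lower than in Ctrl. In S.A. against Ctrl, 8 of 31 rose and 2 fell, where 6.23% of the 21070 genes rose and 8.55% fell. The members that rose were EIF2AK3, ALDH1L2, ASNS, CBS, CHAC1, KLHL24, STC2 and INHBE, and those that fell were EIF2S1 and DDIT4. With the block 7 rose and 1 fell, where 2.9% and 3.49% of genes did, and CBS and EIF2S1 were no longer called.

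In L.A. against Ctrl, 0 members rose and 6 fell, where 1.61% of genes rose and 1.59% fell. The 6 were EIF2AK3, PSAT1, CHAC1, SESN2, STC2 and INHBE. With the block 0 rose and 2 fell, PSAT1 and INHBE, where 0.769% and 0.555% of genes did. When 1 of the 4 arrays compared was left out, 1 to 3 members were called.

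In L.A. against S.A., 1 member rose and 12 fell, where 8.7% of genes rose and 7.24% fell. DDIT4 rose, and EIF2AK3, EIF2AK4, PSAT1, ALDH1L2, ASNS, CTH, CHAC1, SESN2, XPOT, KLHL24, STC2 and INHBE fell. With the block 1 rose and 9 fell, where 4.85% and 3.8% of genes did. CTH, PSAT1 and XPOT were no longer called. Any 2 of the 3 comparisons share the arrays of a group, so their calls do not stand apart from each other.

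The test for any difference among the 3 groups, limma's F test, called 14 of 31 members, where 18.2% of genes were called, and 10 with the block, where 8.35% were. Over the 33 members with a value and no filter, the median difference was 0.15 in S.A. minus Ctrl, -0.39 in L.A. minus Ctrl and -0.50 in L.A. minus S.A. The same medians over 33616 genes were -0.02, -0.02 and -0.00. Of the 33 members, 9 were above and 24 below Ctrl in L.A., and 19 were above and 14 below Ctrl in S.A. Of the 31 tested, 15 were called in at least 1 comparison and 16 in none, ATF4 itself among the 16. The share of all genes called in at least 1 comparison was not counted, so the 15 has no background beside it.

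**Figure D1:**
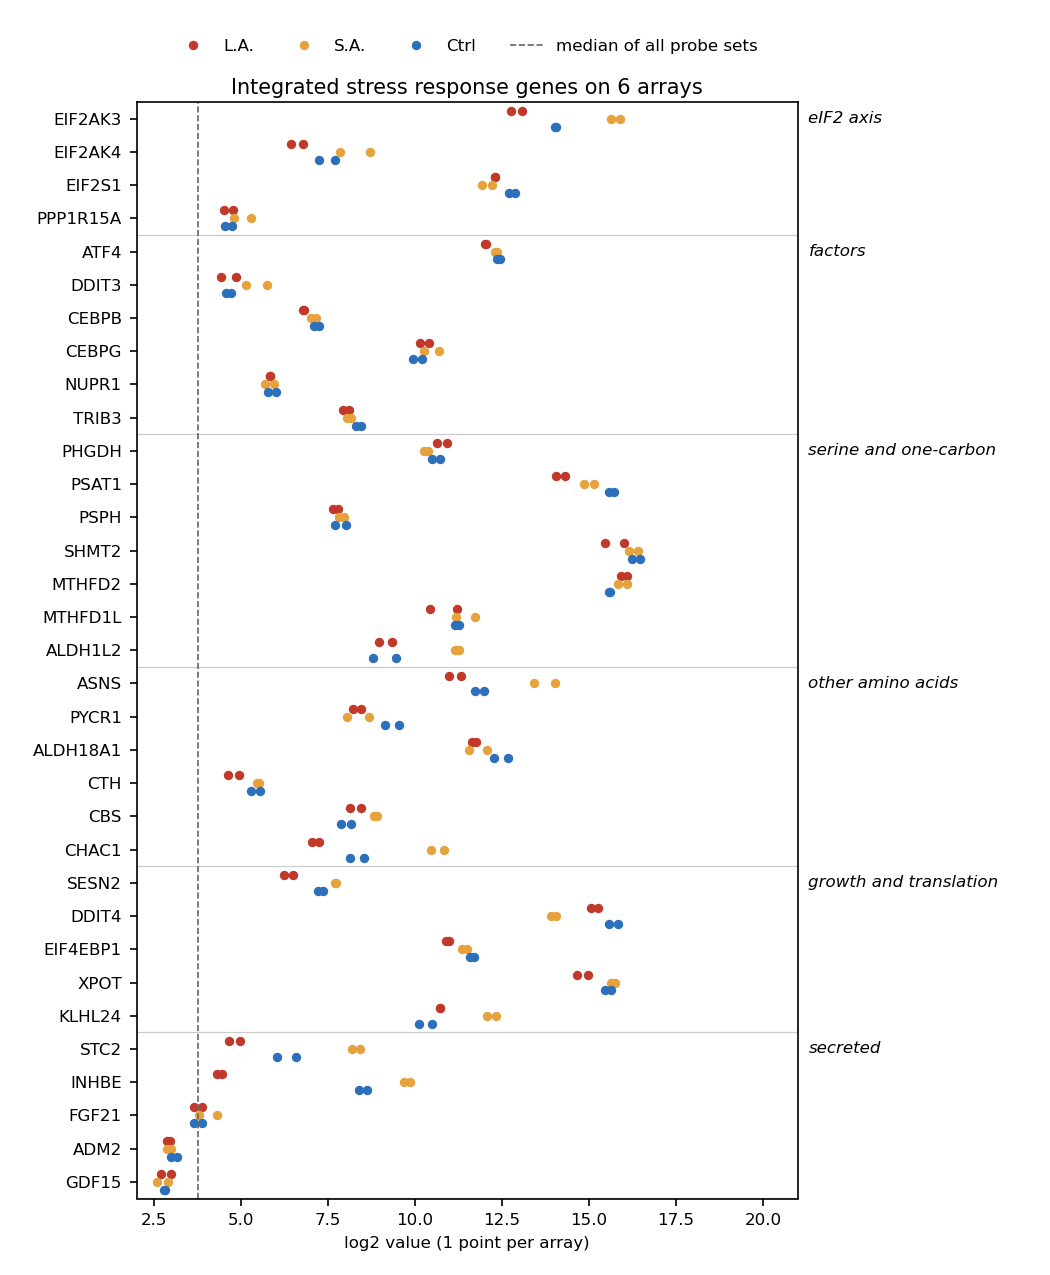
Log2 value (x axis) of the 33 members with a probe set of their own on each of the 6 arrays, 1 point per array, in rows grouped by role, with the median of all probe sets as a dashed line. EIF2AK3, ALDH1L2, ASNS, CHAC1, KLHL24, STC2 and INHBE have both S.A. points right of the L.A. and Ctrl points, DDIT4 has them left, and the ATF4 points lie between 12.00 and 12.45.

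PERK, the kinase that senses unfolded protein, was higher than Ctrl in S.A. and, in the fit without the block, lower in L.A. EIF2AK3 read 13.08 and 12.76 on the L.A. arrays, 15.64 and 15.90 on the S.A. arrays and 14.05 and 14.02 on the Ctrl arrays. The 3 groups did not overlap, with S.A. highest and L.A. lowest. In S.A. it rose by 1.73 ± 0.17 over Ctrl (limma adjusted p = 0.00422, blocked adjusted p = 0.00794). In L.A. it fell by 1.11 ± 0.17 against Ctrl (adjusted p = 0.0321), a call lost with the block (blocked adjusted p = 0.0992) and when any 1 of the 4 arrays was left out. Between the acid groups the difference was -2.85 ± 0.17 for L.A. minus S.A. (limma adjusted p = 0.000732, blocked adjusted p = 0.000579).

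GCN2, the sensor of uncharged tRNA, showed the same order of group means with a wider spread. EIF2AK4 read 6.79 and 6.45 in L.A., 7.85 and 8.69 in S.A. and 7.71 and 7.25 in Ctrl. Only L.A. minus S.A. was called, at -1.65 ± 0.32 (limma adjusted p = 0.0213, blocked adjusted p = 0.0237), and the call was lost without the second L.A. replicate. Its gap of 0.85 between the S.A. replicates was the largest of any member in that group. EIF2S1, the alpha subunit of eIF2 that the kinases phosphorylate, read 12.30 and 12.31 in L.A., 12.22 and 11.92 in S.A. and 12.71 and 12.87 in Ctrl. It was lower in S.A. than in Ctrl, by -0.72 ± 0.16 (limma adjusted p = 0.035), but not with the block (blocked adjusted p = 0.127) or without either Ctrl replicate or the second S.A. replicate. PPP1R15A, the phosphatase adaptor GADD34 that reverses the phosphorylation, lay between 4.53 and 5.28 on the 6 arrays and was called in no comparison.

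ATF4 mRNA stayed within a narrow range. It read 12.00 and 12.03 in L.A., 12.29 and 12.36 in S.A. and 12.45 and 12.36 in Ctrl. The S.A. and Ctrl arrays overlapped, and both L.A. arrays lay below them. The S.A. minus Ctrl difference was -0.07 ± 0.13 (limma adjusted p = 0.754), with a 95% interval of -0.60 to 0.45 in the blocked fit. In L.A. minus Ctrl it was -0.39 ± 0.13 (limma adjusted p = 0.182, blocked adjusted p = 0.58), with a blocked interval of -0.91 to 0.14. A change of 1 in either direction lies outside both intervals. ATF4 is on chromosome 22, where the median of 268 protein-coding genes tested was -0.36 in S.A. minus Ctrl and 0.04 in L.A. minus Ctrl; the part of that shift in the value of ATF4 was not tested.

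None of the 6 factors tested was called in any comparison. The F test called 18.2% of all genes (8.35% with the block), so 0 of 6 says little about the factors as a group. DDIT3 (CHOP), a factor that ATF4 switches on and that is known to promote cell death under lasting stress, read 4.42 and 4.86 in L.A., 5.75 and 5.15 in S.A. and 4.58 and 4.71 in Ctrl. Both S.A. arrays lay above the others, but at 0.81 ± 0.25 in S.A. minus Ctrl the difference missed the threshold (limma adjusted p = 0.0859, blocked adjusted p = 0.156). CEBPB and CEBPG, the C/EBP partners of ATF4, differed from Ctrl by -0.39 and 0.20 in L.A. and by -0.10 and 0.41 in S.A. For TRIB3, a pseudokinase that binds ATF4 and dampens it, the differences from Ctrl were -0.37 in L.A. and -0.28 in S.A. NUPR1, a stress-induced nuclear protein, was at -0.06 and -0.08. The probe set that ATF5 shares with a microRNA read 6.05 and 6.05 in L.A., 7.73 and 7.60 in S.A. and 7.59 and 7.83 in Ctrl. It was not tested, and its values cannot be assigned to ATF5 alone.

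**Figure D2:**
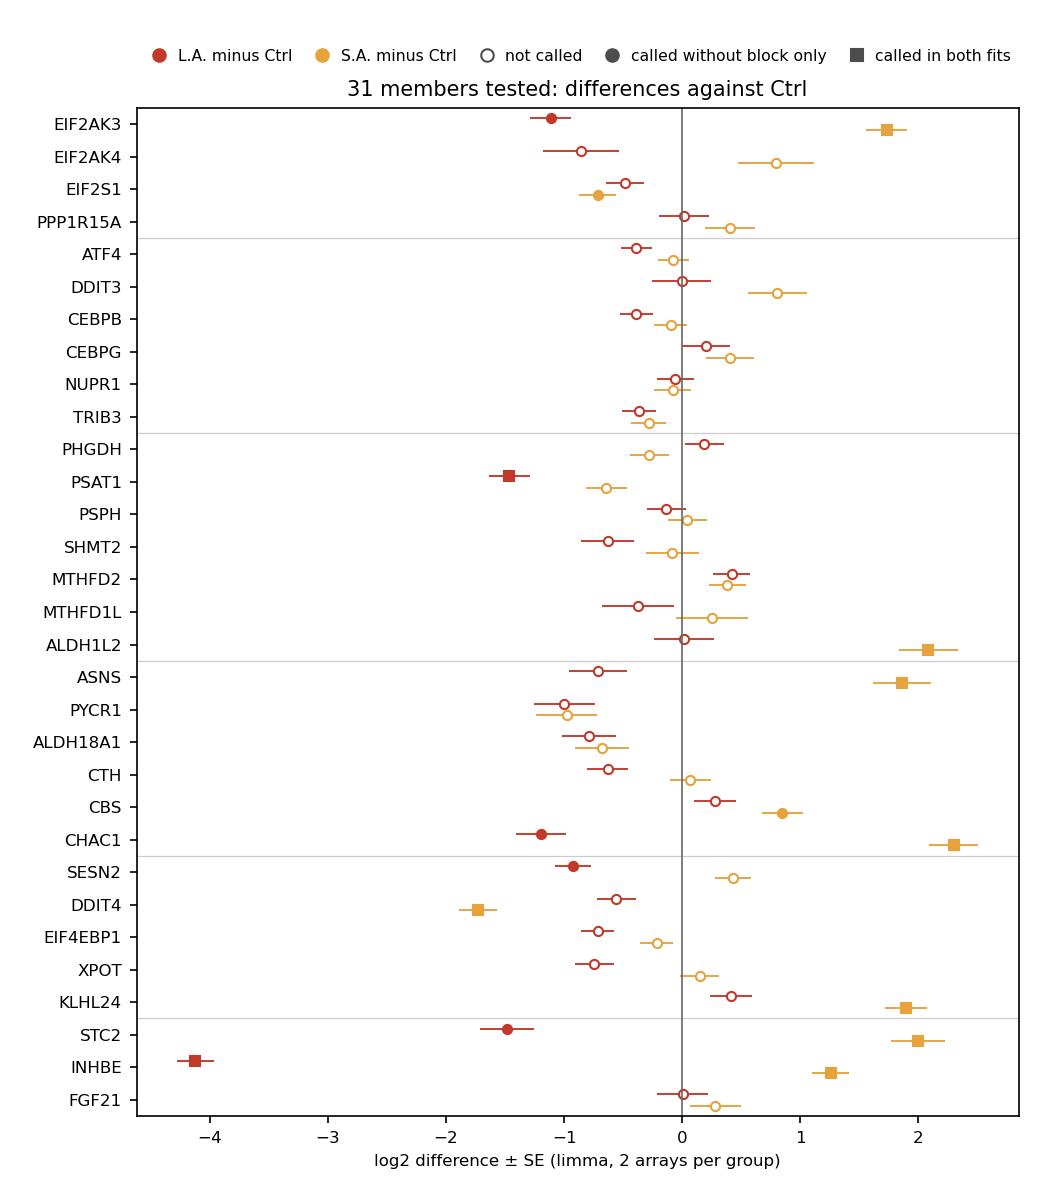
Log2 differences from Ctrl (x axis) of the 31 members tested, L.A. above S.A. in each row, with bars of 1 standard error from limma on 2 arrays per group. Open circles were not called, filled circles were called only without the replicate block and squares in both fits; INHBE lies at -4.13 for L.A. and 1.26 for S.A., and DDIT4 is the one S.A. square left of 0.

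Most of the serine and one-carbon enzymes were called in no comparison. PHGDH, PSAT1 and PSPH catalyse the successive steps of serine synthesis, and SHMT2, MTHFD2, MTHFD1L and ALDH1L2 handle folate-bound carbon units in mitochondria. Of these 7 members, 1 rose in S.A. against Ctrl and 1 fell in L.A. against Ctrl, both also with the block, where 6.23% of all genes rose and 1.59% fell (2.9% and 0.555% with the block), so these are counts of single genes. ALDH1L2, the mitochondrial formyltetrahydrofolate dehydrogenase, read 8.96 and 9.32 in L.A., 11.16 and 11.26 in S.A. and 9.45 and 8.80 in Ctrl. Both S.A. arrays lay far above the other 4, which overlapped. It rose by 2.09 ± 0.25 in S.A. against Ctrl (limma adjusted p = 0.00659, blocked adjusted p = 0.00752), and L.A. minus S.A. was -2.07 ± 0.25 (limma adjusted p = 0.00506, blocked adjusted p = 0.00548). In L.A. minus Ctrl the difference was 0.02 ± 0.25, with a blocked interval of -0.66 to 0.69.

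PSAT1, the phosphoserine aminotransferase, was lower in L.A. It read 14.04 and 14.32 in L.A., 15.14 and 14.86 in S.A. and 15.72 and 15.56 in Ctrl, and the 3 groups did not overlap. Against Ctrl it fell by 1.46 ± 0.18 in L.A. (limma adjusted p = 0.0154, blocked adjusted p = 0.0337), a call lost without the first replicate of either group. The S.A. minus Ctrl difference of -0.64 ± 0.18 missed the threshold (limma adjusted p = 0.0624). L.A. minus S.A., at -0.82 ± 0.18, was called without the block only (adjusted p = 0.0294, blocked adjusted p = 0.0896), and was lost without the first S.A. or either L.A. replicate. PSAT1 is on chromosome 9, where the median of 481 protein-coding genes was -0.10 in L.A. minus Ctrl and -0.43 in S.A. minus Ctrl; the part of that shift in the PSAT1 values was not tested.

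The other 5 enzymes of the group were called in no comparison. PHGDH, the first enzyme of serine synthesis, differed from Ctrl by 0.19 in L.A. and -0.28 in S.A., and PSPH, the last, by -0.13 and 0.04. SHMT2 stood at -0.63 and -0.08. MTHFD2 lay above Ctrl in both acid groups, by 0.42 and 0.38. MTHFD1L stood at -0.37 in L.A. and 0.26 in S.A., and its gap of 0.78 between the L.A. replicates was the largest of any member in that group. PHGDH had a further probe set, dim at a mean of 3.13, which was not used.

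Among the other amino acid enzymes, ASNS and CHAC1 rose in S.A. in both fits. ASNS, asparagine synthetase, is a classic ATF4 target, and CHAC1 cleaves glutathione. ASNS read 10.98 and 11.32 in L.A., 14.02 and 13.42 in S.A. and 11.74 and 11.99 in Ctrl, so the 3 groups did not overlap. It rose by 1.86 ± 0.25 in S.A. against Ctrl (limma adjusted p = 0.00861, blocked adjusted p = 0.0113), and L.A. minus S.A. was -2.57 ± 0.25 (limma adjusted p = 0.00247, blocked adjusted p = 0.00206). L.A. minus Ctrl, at -0.71 ± 0.25, was not called (limma adjusted p = 0.189).

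CHAC1 read 7.23 and 7.05 in L.A., 10.82 and 10.45 in S.A. and 8.14 and 8.53 in Ctrl. The groups were again apart, with S.A. highest and L.A. lowest. In S.A. against Ctrl it rose by 2.30 ± 0.21, the largest rise of any member tested (limma adjusted p = 0.00347, blocked adjusted p = 0.00384). In L.A. it fell by 1.20 ± 0.21 against Ctrl (adjusted p = 0.0427), a call lost with the block (blocked adjusted p = 0.0992) and when any 1 of the 4 arrays was left out. L.A. minus S.A. was -3.50 ± 0.21 (limma adjusted p = 0.000689, blocked adjusted p = 0.000358).

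Both proline enzymes lay below Ctrl in both acid groups without being called. PYCR1, which makes proline in the last step, was at -0.997 ± 0.26 in L.A. (limma adjusted p = 0.106) and -0.98 ± 0.26 in S.A. (adjusted p = 0.0563). ALDH18A1, which starts the route from glutamate, was at -0.79 ± 0.23 in L.A. (limma adjusted p = 0.134) and -0.68 ± 0.23 in S.A. (adjusted p = 0.104). It is on chromosome 10, where 462 protein-coding genes had a median of -0.30 in S.A. minus Ctrl and -0.07 in L.A. minus Ctrl. The part of that shift in the ALDH18A1 values was not tested. The sulfur amino acid enzymes were called in the fit without the block only. CTH, which makes cysteine, read 4.63 and 4.96 in L.A., 5.52 and 5.47 in S.A. and 5.55 and 5.30 in Ctrl. L.A. lay below both, and L.A. minus S.A. was -0.70 ± 0.17 (limma adjusted p = 0.0455, blocked adjusted p = 0.144), lost in 9 of 14 alternatives, those without any 1 of the 4 arrays among them. CBS, which makes cystathionine, rose by 0.85 ± 0.18 in S.A. against Ctrl (limma adjusted p = 0.0287, blocked adjusted p = 0.0879), lost in 6 of 14 alternatives, again with any 1 of the 4 arrays left out. CBS has a near-identical copy in the genome and its values are uncertain for that reason; its other probe set gave 0.46 in S.A. minus Ctrl.

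ATF4 and its C/EBP partners bind a composite element, and the promoters of the members were searched for its core, TGATGNAA, on both strands, where it reads TTNCATCA on the other. Promoter sequences from RefSeq on GRCh38.p14, from 250 bases before to 50 after a start, covered 41 starts of 27 members. The core was found in 7 of the 41 (17.1%), against 3.62% of 35116 promoters in the table and 2.17% of 14667 promoters of protein-coding genes tested. Several of the 7 are the same site of MTHFD1L, seen from overlapping start windows. Counted by gene the core was in 5 of 27 members (18.5%), against 2.94% of 10154 protein-coding genes tested. The longer consensus TGATGCAAT, which contains a core match, was in 2 of 27 members (7.41%), against 0.167% of those genes. Such elements are among the reasons why genes are counted as ATF4 targets, so these shares only describe the list. The 5 matches are printed in windows of 30 bases, on the strand on which the core reads forward, with the core in capitals, to show which letters each shares.
CHAC1, chr15:40953251-40953280, minus strand: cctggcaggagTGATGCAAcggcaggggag
ASNS, chr7:97872458-97872487, minus strand: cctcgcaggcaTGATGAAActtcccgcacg
CEBPG, chr19:33374060-33374089, plus strand: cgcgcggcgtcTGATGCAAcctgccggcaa
MTHFD1L, chr6:150866346-150866375, plus strand: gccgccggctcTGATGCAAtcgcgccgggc
FGF21, chr19:48755459-48755488, minus strand: ctcctcctcccTGATGCAAtcctggtgttt

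The core began 209 bases before the start in CHAC1 and 68 in ASNS, where it lies in the known amino acid response element of that gene. In CEBPG it began 42 bases before the second listed start, in MTHFD1L 129 before the first listed start and in FGF21 54 before the start. MTHFD1L and FGF21 also hold the longer consensus. The whole 250 bases before the start are shown for CHAC1 and ASNS, the members with a match that rose in S.A., each on the strand of its gene, so the CHAC1 match reads TTGCATCA.
CHAC1, chr15:40953221-40953470, plus strand: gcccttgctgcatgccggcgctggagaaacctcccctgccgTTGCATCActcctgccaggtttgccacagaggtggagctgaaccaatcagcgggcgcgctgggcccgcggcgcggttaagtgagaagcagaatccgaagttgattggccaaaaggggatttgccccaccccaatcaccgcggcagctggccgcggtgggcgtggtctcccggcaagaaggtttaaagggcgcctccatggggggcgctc
ASNS, chr7:97872409-97872658, minus strand: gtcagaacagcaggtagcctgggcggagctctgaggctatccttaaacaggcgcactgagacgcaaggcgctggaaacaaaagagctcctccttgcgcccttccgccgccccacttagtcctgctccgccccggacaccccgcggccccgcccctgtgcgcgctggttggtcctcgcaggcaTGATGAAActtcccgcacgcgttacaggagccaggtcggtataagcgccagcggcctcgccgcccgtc

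Of the 5 members with a core match, 2 rose and 0 fell in S.A. against Ctrl. Of 19 tested members whose promoters lack it 4 rose and 2 fell, where 6.23% of all genes rose and 8.55% fell. With the block these counts were 2 and 0 of the 5, and 3 and 1 of the 19, where 2.9% of all genes rose and 3.49% fell. Against Ctrl, 1 of the 5 and 4 of the 19 fell in L.A. and 0 of either rose, where 1.59% of all genes fell and 1.61% rose. All of these falls are among the calls above. With the block 0 of the 5 and 1 of the 19 fell, where 0.555% of all genes did. The difference between members with and without the core was not tested. CEBPG, MTHFD1L and FGF21, which carry the core, were called in no comparison. A match is a run of letters and not a measured binding site.

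Members that act on growth and translation included the one that fell furthest in S.A. DDIT4 (REDD1), which restrains the growth kinase complex mTORC1, read 15.04 and 15.26 in L.A., 14.05 and 13.92 in S.A. and 15.83 and 15.58 in Ctrl. The groups did not overlap, and S.A. was lowest. It fell by 1.73 ± 0.16 in S.A. against Ctrl (limma adjusted p = 0.00372, blocked adjusted p = 0.00745). L.A. minus S.A. was 1.17 ± 0.16 (limma adjusted p = 0.00767, blocked adjusted p = 0.0236), and L.A. minus Ctrl, at -0.56 ± 0.16, was not called (limma adjusted p = 0.137). DDIT4 is on chromosome 10, where the median of 462 protein-coding genes was -0.30 in S.A. minus Ctrl; the part of that shift in the DDIT4 value was not tested.

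SESN2 (sestrin 2), another brake on mTORC1, was lower in L.A. than in S.A., where DDIT4 was higher. It read 6.23 and 6.49 in L.A., 7.72 and 7.71 in S.A. and 7.36 and 7.21 in Ctrl, with no overlap and L.A. lowest. Its difference was -1.35 ± 0.15 in L.A. minus S.A. (limma adjusted p = 0.004, blocked adjusted p = 0.0125) and -0.92 ± 0.15 in L.A. minus Ctrl (limma adjusted p = 0.0369). The second call was lost with the block (blocked adjusted p = 0.148) and without any 1 of the 4 arrays. In S.A. minus Ctrl it stood at 0.43 ± 0.15 (limma adjusted p = 0.118).

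KLHL24, a substrate adaptor of a ubiquitin ligase, rose in S.A. It read 10.72 and 10.71 in L.A., 12.08 and 12.31 in S.A. and 10.48 and 10.12 in Ctrl. Both S.A. arrays stood well above the other 4. The S.A. rise over Ctrl was 1.89 ± 0.18 (limma adjusted p = 0.00369, blocked adjusted p = 0.00582), and L.A. minus S.A. was -1.48 ± 0.18 (limma adjusted p = 0.00494, blocked adjusted p = 0.0108). KLHL24 was 1 of 8 members tested that lay above Ctrl in L.A., by 0.42 ± 0.18, and it was not called there (limma adjusted p = 0.267).

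XPOT, which carries tRNA out of the nucleus, read 14.64 and 14.96 in L.A., 15.75 and 15.62 in S.A. and 15.63 and 15.45 in Ctrl. Both L.A. arrays lay below the others, and L.A. minus S.A. was -0.89 ± 0.17, called without the block only (limma adjusted p = 0.0196, blocked adjusted p = 0.0659) and lost without either S.A. replicate or the first L.A. replicate. EIF4EBP1, a repressor of cap-dependent translation, read 10.88 and 10.97 in L.A., 11.49 and 11.36 in S.A. and 11.59 and 11.69 in Ctrl. Its L.A. minus Ctrl difference of -0.71 ± 0.14 missed the threshold (limma adjusted p = 0.0568, blocked adjusted p = 0.259).

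The secreted members held the largest difference of the list. INHBE encodes the subunit of activin E, a secreted protein of the TGF-beta family known mainly from liver. It read 4.32 and 4.45 in L.A., 9.68 and 9.86 in S.A. and 8.63 and 8.40 in Ctrl. The S.A. and Ctrl arrays were well above the median of all probe sets, 3.77, and the L.A. arrays were close to it. Without detection calls it is not known whether the L.A. values are above background, and if they are not, the differences from L.A. are lower bounds in size. Against Ctrl it fell by 4.13 ± 0.16 in L.A. (limma adjusted p = 0.000841, blocked adjusted p = 0.000387). It rose by 1.26 ± 0.16 in S.A. (limma adjusted p = 0.00719, blocked adjusted p = 0.0225), and L.A. minus S.A. was -5.39 ± 0.16 (limma adjusted p = 0.000125, blocked adjusted p = 3.73e-05). INHBE was the one member called in all 3 comparisons in both fits, and all 3 calls held under each of the 14 alternatives run.

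STC2 (stanniocalcin 2), a secreted glycoprotein, showed the same order. It read 4.67 and 4.97 in L.A., 8.19 and 8.42 in S.A. and 6.58 and 6.03 in Ctrl, with no overlap. Its L.A. values lay around the 75th percentile of all probe sets, 4.86. Without detection calls it is not known here either whether they are above background. It rose by 2.00 ± 0.23 in S.A. against Ctrl (limma adjusted p = 0.00594, blocked adjusted p = 0.00749), and L.A. minus S.A. was -3.48 ± 0.23 (limma adjusted p = 0.000876, blocked adjusted p = 0.00044). Against Ctrl it fell by 1.49 ± 0.23 in L.A. (limma adjusted p = 0.0314), which just missed the threshold with the block (blocked adjusted p = 0.0529) and was lost without the first Ctrl replicate or either L.A. replicate. FGF21, a metabolic hormone, lay between 3.65 and 4.31 on the 6 arrays, near the median of all probe sets, and was called in no comparison.

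**Figure D3:**
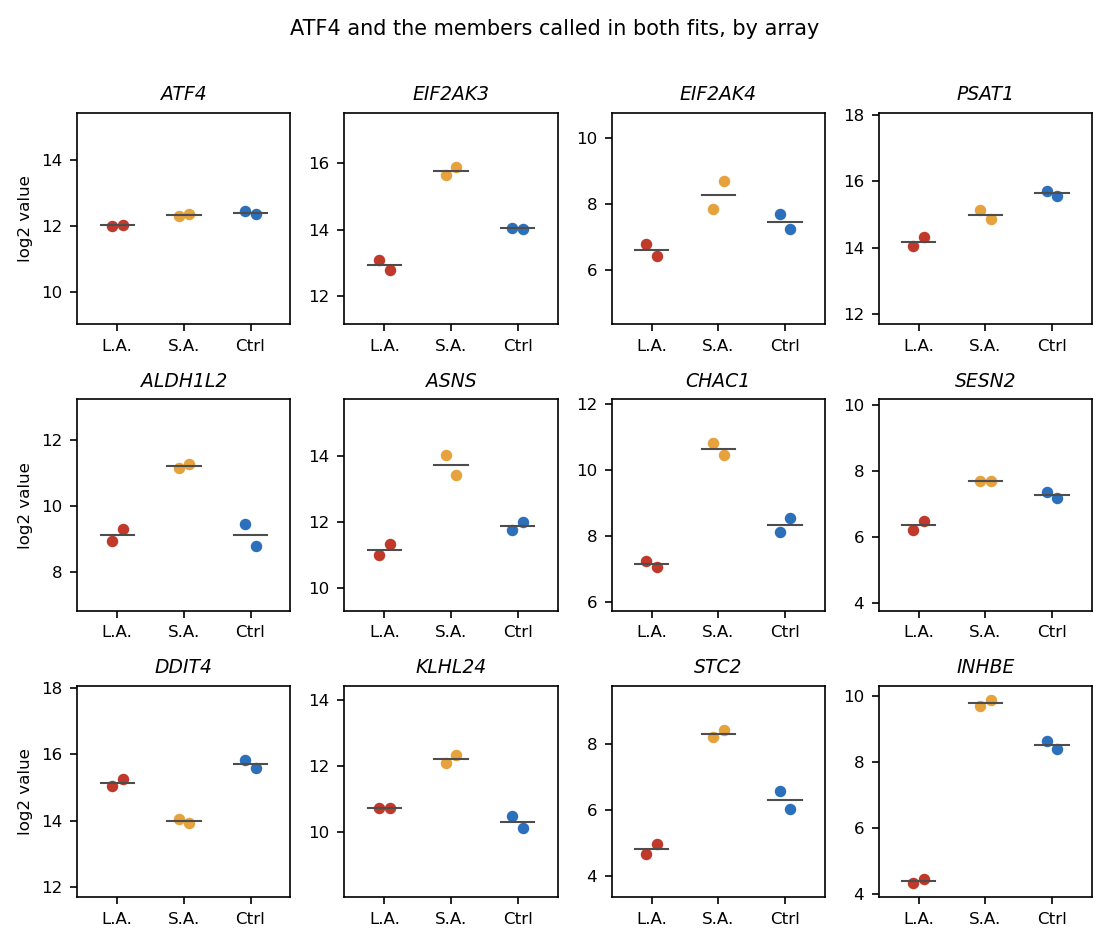
Log2 value (y axis) by array for ATF4 and the 11 members called in both fits in at least 1 comparison, with a line at each group mean; every panel spans the same range of log2 units. The S.A. points of INHBE stand at 9.68 and 9.86 and its L.A. points at 4.32 and 4.45, while the ATF4 panel is nearly flat.

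Genes of the same pathway that are not members were taken from further lists, to be read against the shares of all genes: 6.23% higher and 8.55% lower in S.A. minus Ctrl (2.9% and 3.49% with the block), and 1.61% and 1.59% in L.A. minus Ctrl (0.769% and 0.555%). Of 15 other genes of the eIF2 machinery tested, 3 rose and 1 fell in S.A. against Ctrl, with 1 and 0 under the block. NCK1, an adaptor that acts on eIF2 phosphorylation, rose by 1.34 (limma adjusted p = 0.00571, blocked adjusted p = 0.0175). Without the block only, DNAJC3, an inhibitor of PERK, was called at 0.91, the eIF2B subunit EIF2B1 at 0.68 and EIF2B3 at -1.01. The haem-sensing kinase EIF2AK1 stood at 0.26 and the RNA-sensing kinase EIF2AK2 at -0.26, and the other eIF2 subunits EIF2S2 and EIF2S3 at -0.35 and -0.30, none of them called. None of the 15 was called in L.A. against Ctrl in either fit.

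Of 30 other ATF4 targets and partners tested, 10 rose and 3 fell in S.A. against Ctrl, with 5 and 0 under the block. ATF3, a stress factor of the same family, rose most, with 8.37 and 9.02 on the S.A. arrays against 5.60 and 5.12 on the Ctrl arrays, a difference of 3.34 ± 0.27 (limma adjusted p = 0.0026, blocked adjusted p = 0.00153). SQSTM1 (p62), an autophagy receptor, rose by 2.54 ± 0.18 (limma adjusted p = 0.00216, blocked adjusted p = 0.00224). GARS1, the glycyl-tRNA synthetase, rose by 1.56, WARS1, the tryptophanyl-tRNA synthetase, by 1.11 and SLC6A9, a glycine transporter, by 1.06, with blocked adjusted p of 0.0112, 0.05 (under the threshold before rounding) and 0.0363. The 5 called only without the block were WIPI1 at 1.01, SLC7A1 at 0.85, NFE2L1 at 0.84, HERPUD1 at 0.81 and SLC1A5 at 0.54. YARS1 at -0.86, IARS1 at -0.80 and JMJD6 at -0.63 were called lower, again without the block only.

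In L.A. against Ctrl, 1 of the 30 rose and 4 fell, with 0 and 1 under the block, and 28 of the 30 differences were negative, with a median of -0.38 against -0.03 over the 21070 genes. HERPUD1, a component of endoplasmic reticulum degradation, read 15.08 and 15.22 in L.A. and 17.19 and 17.17 in Ctrl, a difference of -2.03 ± 0.14 (limma adjusted p = 0.00513, blocked adjusted p = 0.00807). Called only without the block were SLC7A11 at -1.77 and SLC3A2 at -1.28, the 2 chains of the cystine transporter, VEGFA at -0.84 and SLC6A9 at 1.0. In L.A. against S.A., where 8.7% of all genes rose and 7.24% fell (4.85% and 3.8% with the block), 0 rose and 15 fell. The median was -0.82, and 0 rose and 13 fell under the block. ATF3 (-3.46), SQSTM1 (-3.07), HERPUD1 (-2.84), SLC7A11 (-2.28) and GARS1 (-2.09) led these, and RIOK3, SARS1 and SLC1A4, at -1.06, -0.87 and -0.85, were called in this comparison alone, SARS1 and SLC1A4 without the block only.

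Of 11 folate and glycine enzymes outside the member list, 0 rose and 6 fell in S.A. against Ctrl, with 0 and 4 under the block, and the median was -0.80 against -0.04 over the 21070 genes. GLDC, the glycine decarboxylase, read 14.05 and 14.02 in L.A., 11.40 and 11.23 in S.A. and 14.85 and 14.97 in Ctrl. Its S.A. minus Ctrl difference of -3.60 ± 0.14 (limma adjusted p = 0.000754, blocked adjusted p = 0.000614) was opposite in sign to that of ALDH1L2. GCSH (-1.53), a partner of GLDC in glycine cleavage, MTHFD1 (-1.24), the cytosolic folate enzyme, and TYMS (-1.06), the thymidylate synthase, fell in both fits, and SFXN1 (-0.89) and MTR (-0.80) without the block only. In L.A. against Ctrl 0 rose and 3 fell, DLD at -0.94, GLDC at -0.88 and MTR at -0.82, with 0 and 0 under the block.

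Of 13 other amino acid enzymes tested, 0 rose and 5 fell in S.A. against Ctrl, with 0 and 1 under the block. GLUL, glutamine synthetase, read 14.11 and 14.81 in L.A., 10.99 and 9.91 in S.A. and 13.62 and 13.79 in Ctrl, and fell by 3.25 ± 0.39 in S.A. (limma adjusted p = 0.00668, blocked adjusted p = 0.00459). PRODH, OAT, CHAC2 and GLUD1 were called without the block only, at -0.84, -0.82, -0.75 and -0.65. None of the 13 was called in L.A. against Ctrl in either fit.

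Of 17 genes of the other arms of the unfolded protein response, run by IRE1 and ATF6, 3 rose and 2 fell in S.A. against Ctrl, with 3 and 0 under the block; the share that fell, 11.8%, was near the 8.55% of all genes. SEL1L rose by 2.31, DNAJB9 by 2.04 and ERN1, which encodes IRE1, by 1.58, in both fits, while SEC61B at -1.20 and CRELD2 at -0.61 were called without the block only. In L.A. against Ctrl ERN1 alone was called, at -1.42 (limma adjusted p = 0.0494, blocked adjusted p = 0.0809). Of 10 mitochondrial chaperones and proteases, 0 rose and 4 fell in S.A. against Ctrl, with 0 and 2 under the block. TRAP1 (-1.34) and HSPE1 (-1.17) fell in both fits, and HSPD1 (-0.72) and YME1L1 (-0.61) without the block only. The protease LONP1 is in this list and in that of ATF4 targets, and was called in no comparison.

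Between the acid groups these further lists were called as follows. Of all genes, 8.7% rose and 7.24% fell in L.A. against S.A. (4.85% and 3.8% with the block). Where 1 gene of a list rose, its share (6.67%, 5.88% or 10%) was near the 8.7%. In L.A. against S.A. 1 of the 15 genes of the eIF2 machinery rose and 2 fell, with 0 and 2 under the block: DNAJC3 at -1.39 and NCK1 at -1.21 in both fits, and EIF2B3 at 0.99 without the block. Of the 11 folate and glycine enzymes 4 rose and 0 fell, with 3 and 0 under the block: GLDC at 2.72, TYMS at 1.37 and MTHFD1 at 1.13 in both fits, and SFXN1 at 0.83 without the block. Of the 13 amino acid enzymes 3 rose, GLUL at 4.01 in both fits, and CHAC2 at 0.80 and GLUD1 at 0.78 without the block. Of the 17 genes of the IRE1 and ATF6 arms 1 rose and 4 fell, with 0 and 3 under the block: SEL1L at -3.14, ERN1 at -3.00 and DNAJB9 at -2.41 in both fits, and SYVN1 at -0.91 and MANF at 0.81 without the block. TRAP1, at 1.14, was the one mitochondrial chaperone called, in both fits.

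**Figure D4:**
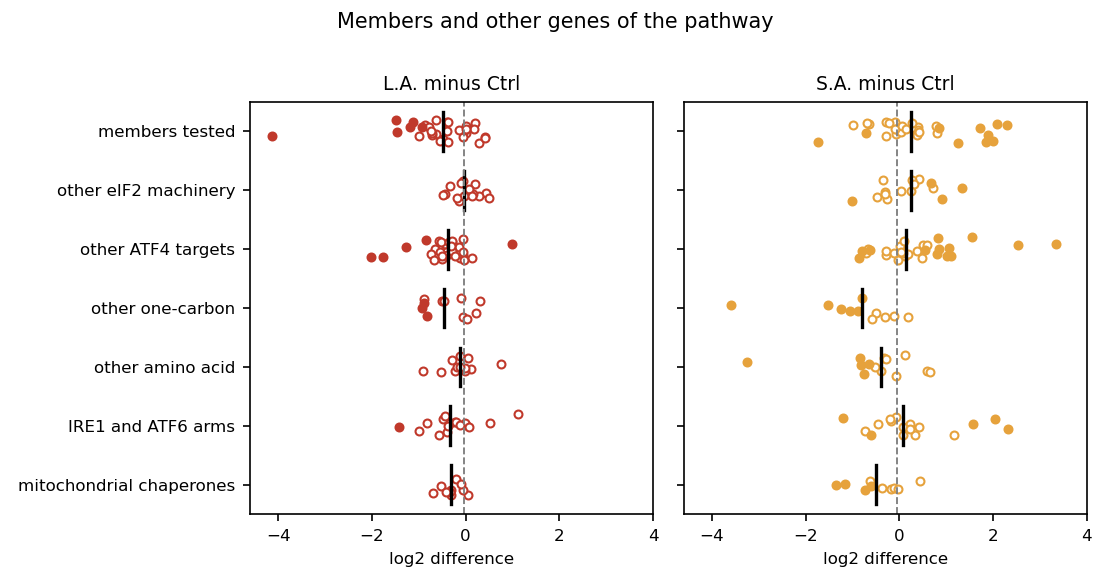
Log2 difference from Ctrl (x axis) of each gene tested in the member list and in 6 further lists, L.A. on the left and S.A. on the right, with filled points for genes called without the block, a black line at each list's median and a dashed line at the median of the 21070 genes. The median of the other one-carbon enzymes lies at -0.80 in S.A., and that of the members tested at -0.48 in L.A. and 0.26 in S.A.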

How the data were processed

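Total RNA was amplified and hybridized as biotin-labelled cDNA, per the labels' protocols. The deposited log2 values were made by the authors with RMA and the Transcriptome Analysis Console, per the submitters' processing notes, which give no version. The log base, the array's genome build and the variant of RMA were not given in the sources used here. The platform annotation gave 1 gene symbol to 36176 of 135574 probe sets, several to 1119 and none to 98279, and 25516 of 25555 gene IDs matched RefSeq GRCh38.p14. The brightest single-symbol probe set stood for each of 33616 symbols, and genes with a mean under 3.77, the median of all probe sets, were left out. No detection calls were used. The values ran from 1.93 to 20.02 and the array medians from 3.77 to 3.80. The number of arrays limits the precision.

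Groups were taken from the labels. Differences were tested in R 4.3.3 with limma 3.58.1 (group means over 6 arrays, eBayes without trend, two-sided, Benjamini-Hochberg over 21070 genes). Within groups, the replicate numbers held 1.18% of the sum of squares, against 33.3% expected with no term removed, and the labels state no removal. Arrays of the same number deviated in opposite directions, with correlations over genes of -0.41 to -0.57. Removal of a term for replicate number would itself give such correlations, so they cannot show whether the numbers pair the samples. The fit with replicate number as a block counts 2 residual degrees of freedom in place of 3. It is given in case a term was removed. The fits were also run on simulated arrays with known changes, which checks the code and not the calls made here. Members and lists were chosen with earlier results of these data known. Every member is named; a gene of the further lists is named where called or where it is an eIF2 kinase or subunit. Alternatives varied the filter, probe set choice, scaling, spread model, genes tested and arrays. Promoter sequences are from RefSeq; NUPR1, PSPH, SHMT2, ALDH1L2, PYCR1, EIF4EBP1 and INHBE had no entry.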

Additional observations from a re-analysis of the deposited data

Results flagged for a closer look

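The 2 acid groups differed from each other in 13 members by the test of that difference itself, L.A. minus S.A., in limma without the replicate block. Of these, 12 were lower in L.A.: INHBE at -5.39, CHAC1 at -3.50, STC2 at -3.48, EIF2AK3 at -2.85, ASNS at -2.57, ALDH1L2 at -2.07, EIF2AK4 at -1.65, KLHL24 at -1.48, SESN2 at -1.35, XPOT at -0.89, PSAT1 at -0.82 and CTH at -0.70. DDIT4, at 1.17, was higher in L.A. With the block PSAT1, CTH and XPOT were no longer called. The members were named here because this comparison called them, and 7.24% of all genes were called lower and 8.7% higher in it.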

How the results depend on the processing

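The calls in L.A. minus Ctrl rest on the fit more than the others: 6 members were called, 2 with the replicate block, 1 to 3 when an array was left out and 5 to 8 under the other alternatives. The calls gained or lost elsewhere kept S.A. minus Ctrl at 8 to 12 members, L.A. minus S.A. at 10 to 16 and the F test at 10 to 17, beside 10, 13 and 14. Without 1 array a group keeps 1, assumed to vary like the others. The promoter core was in 5 members and the longer consensus in 2, as its construction implies. Of 29 member comparisons called, 18 were called under every alternative run. Of 1296 alternative values of single members, 1193 kept sign and call, 52 lost the call, 21 gained one and 30 turned sign. The sign turned in 18 member comparisons, none of them called in any setting. Outside left-out arrays it turned in DDIT3, L.A. minus Ctrl, at 0.012 with arrays centred and 0.0080 with quantile normalization, and in SHMT2, S.A. minus Ctrl, at 0.012 with quantile normalization. With single arrays left out, L.A. minus Ctrl ran from -0.11 to 0.14 in PPP1R15A, -0.23 to 0.22 in DDIT3, -0.17 to 0.057 in NUPR1, -0.29 to 0.024 in PSPH, -0.76 to 0.018 in MTHFD1L, -0.31 to 0.34 in ALDH1L2 and -0.12 to 0.13 in FGF21. S.A. minus Ctrl ran from -0.20 to 0.040 in NUPR1, -0.11 to 0.20 in PSPH, -0.21 to 0.048 in SHMT2, -0.025 to 0.54 in MTHFD1L and -0.057 to 0.19 in CTH. L.A. minus S.A. ran from -0.42 to 0.016 in CEBPG, -0.096 to 0.14 in NUPR1, -0.17 to 0.0060 in TRIB3, -0.092 to 0.16 in MTHFD2, -0.34 to 0.30 in PYCR1 and -0.37 to 0.15 in ALDH18A1. The cause was not tested. Same-numbered arrays correlated at -0.57 (S.A. and Ctrl), -0.47 (L.A. and Ctrl) and -0.41 (L.A. and S.A.) in their deviations from the group means. A removed replicate term would give such values too, so they cannot show whether the numbers pair the samples.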
